A study of Homo sapiens with 54 samples.

Results

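The libraries described here come from A549 lung cancer cells that carry an empty vector and were kept for 48 h with the coded compound CP18 at 5 µM. They were chosen by their labels: 3 libraries with CP18 are set against 3 libraries of the same cells with the vehicle, DMSO, which makes 6 of the 54 libraries of the series. Of the 58870 genes in the counts table, 15662 passed a filter on low counts and were tested in this comparison.

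The series grows A549 cells with either an insertless vector or a vector that expresses USP18. Each cell type received vehicle, CP18 at other doses, or the coded compounds CP2 and CP14, all for 48 h, in 18 groups of 3 libraries. The groups used beside the main pair are vehicle and 5 µM CP18 in the USP18 cells, and CP18 at 1 and 2.5 µM, CP2 at 5 µM and CP14 at 5 µM in the empty-vector cells.

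A549 is a single human lung adenocarcinoma line, and the sources describe no more than 1 engineered cell population for each vector. CP18 is known only by its code. The series names β-lapachone among its compounds, and which code stands for it is not stated in the sources used. The sample labels describe a stranded library made from oligo-dT-selected mRNA, while the study's methods describe removal of ribosomal RNA. The study's statistics text describes its experiments in general as done with independent biological replicates, and the sample labels do not say how these libraries were grown.

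USP18 removes the ubiquitin-like protein ISG15 from its targets and dampens signalling from the type I interferon receptor. Stress in the cytosol raises heat shock chaperones, and growth factor or stress signals raise immediate early transcription factors. Lung adenocarcinoma cells can also carry programmes of other endoderm, such as liver and gut.

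Sequencing depth was similar in the 6 libraries. The vehicle libraries held 21576354, 18072475 and 25609062 counts. Those with CP18 held 18140481, 18125458 and 20096197 counts. Values from 16673228 to 25609062 were found over the 54 libraries. Genes with at least 1 count numbered 26391 in the 6 libraries.

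The replicates of the CP18 group lay further from each other than the vehicle replicates. The chi-square per gene was 4.55, 8.61 and 10.9 for the CP18 pairs, the larger values being the pairs with replicate 3. For the vehicle pairs it was 2.62, 2.78 and 4.36, the last being replicates 2 and 3. CP18 replicate 3 carried 30872 CPM of mitochondrially encoded genes, where the other CP18 libraries had 25630 and 24660. Ribosomal protein genes summed to 64590 CPM in that library, against 57759 and 59416 in the other CP18 libraries. Vehicle replicate 2 stood apart in small RNAs without a poly(A) tail, at 527 CPM, where the other vehicle libraries had 231 and 71.8 CPM.

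The vectors could be told from the counts. USP18 (ENSG00000184979.9, chr22:18150118-18177397, plus strand; GENCODE v44, GRCh38) was at 10.6, 10.7 and 11.1 CPM in the empty-vector cells with vehicle, and its mean in the USP18 cells was 1307 CPM. With CP18 the empty-vector cells had 11.3, 8.91 and 11.9 CPM, so the libraries overlapped (log2 fold change −0.01). The near-identical copy USP41 had a log2 fold change of 3.95 and did not pass. Reads of these copies cannot be told apart with certainty. ISG15 was at a mean of 2.14 CPM with vehicle and 2.39 CPM with CP18, with a log2 fold change of 0.16 that did not pass.

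Among epithelial markers KRT8, KRT18 and CDH1 were abundant. KRT8 stood at 6151 CPM in vehicle and 5610 CPM in CP18 libraries, and fell by a log2 of −0.13. KRT18 had means of 5034 and 4521 CPM, and EPCAM of 12.3 and 11.6 CPM. KRT19 (4.35 and 5.24 CPM), MUC1 (4.35 and 3.84 CPM) and CLDN7 (2.22 and 1.23 CPM) were low and did not pass. CDH1 had 219, 224 and 214 CPM in the vehicle libraries, and 167, 176 and 172 CPM after CP18, so that all CP18 libraries lay below all vehicle libraries. It fell with a log2 fold change of −0.34 (edgeR quasi-likelihood test, Benjamini-Hochberg adjusted p = 0.00037, 3 of 3 CP18 libraries lower). Of 7 epithelial markers tested, 2 fell, with a median of −0.15, where 4.30% of all tested genes fell. Leaving out any 1 of the libraries other than CP18 replicate 3 left 1 fall. The alveolar type II marker ABCA3 was at 52.8 and 52.6 CPM, COL1A1 at 12.4 and 12.3 CPM, CD68 at 36.9 and 38.3 CPM, and CD3E, SFTPB, SFTPA1 and CLDN5 had no counts in any of the 6 libraries.

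CP18 at 5 µM moved many genes by small amounts and few by large amounts. The edgeR quasi-likelihood test with Benjamini-Hochberg adjustment found 46 of 15662 genes (0.294%) at an adjusted p under 0.05 and more than a doubling or halving, 17 higher and 29 lower with CP18. At the same adjusted p and any size, 641 genes rose (4.09%) and 674 fell (4.30%). The median absolute log2 fold change of these 1315 genes was 0.25, and 1154 of them (87.8%) lay under 0.5. Groups that did not overlap at all were seen for 3630 genes (23.2%). The median log2 fold change over all tested genes was −0.00. The list counts below for this comparison can be set beside the 4.09% and 4.30% over all tested genes.

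Library choice moved these counts. Without vehicle replicate 2 the number of genes past both thresholds was 22, without vehicle replicate 1 it was 24, and without CP18 replicate 3 it was 71. Genes at any size numbered 441, 493 and 2213 in those same settings. DESeq2 found 11 genes past both thresholds and 1406 at any size.

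Of the 46 genes past both thresholds, 20 are protein coding in GENCODE v44, and 8 are long noncoding RNAs. The falls among the 46 include 8 small RNAs without a poly(A) tail, many of which depend on vehicle replicate 2. They also include RF00002, RNA5-8SN1, RNA5-8SN2 and RNA5-8SN3, whose values are identical, so these are not separate measurements. Of the 46, 40 had groups that did not overlap, where 23.2% of all tested genes did, and 9 were under 1 CPM in both groups. The 46 were chosen for their difference between these same libraries, so that separation gives them no further support. Among 9886 tested genes with a mean of at least 10 CPM, 1187 passed at any size and 10 passed both thresholds.

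Heat shock genes encode the chaperones that fold and refold proteins in the cytosol and mitochondria. HSPA1A and HSPA1B are the stress-inducible members of the HSP70 family, HSP90AA1 is the inducible cytosolic HSP90, and CHORDC1 and DNAJA1 are co-chaperones of these machines. Most members of this list rose with CP18, by amounts far under a doubling. Of 21 tested heat shock genes, 16 rose and none fell, with a median log2 fold change of 0.21, where the median of all tested genes was −0.00. DESeq2 also had 16 rises and no falls, and no member fell at an unadjusted edgeR p under 0.05.

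HSPA1A (ENSG00000204389.9, chr6:31815543-31817946, plus strand) measured 297, 288 and 289 CPM in the vehicle libraries and 378, 393 and 402 CPM in the CP18 libraries. Every CP18 library was higher than every vehicle library. The log2 fold change of HSPA1A was 0.43 (SE 0.0436, edgeR quasi-likelihood, Benjamini-Hochberg adjusted p = 1.8e-05, 3 of 3 libraries higher). Its near-identical copy HSPA1B rose by 0.40, from 221, 210 and 234 CPM to 284, 292 and 297 CPM, and how reads divide between the copies is uncertain.

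The major cytosolic chaperones moved with the HSP70 genes. HSP90AA1 (ENSG00000080824.18, chr14:102080742-102139699, minus strand) stood at 2437, 2381 and 2599 CPM in vehicle and 3262, 3431 and 2909 CPM in CP18 libraries. The groups did not overlap, and CP18 replicate 3 was the lowest of the treated libraries. HSP90AA1 rose by a log2 of 0.38 (SE 0.0495, edgeR quasi-likelihood, Benjamini-Hochberg adjusted p = 0.00015, 3 of 3 libraries higher). CHORDC1 rose by 0.42, HSPH1 by 0.34, DNAJA1 by 0.34 and HSPA8 by 0.30. BAG3 and DNAJB1 rose by 0.18 and 0.16. Members that did not pass include HSPB1 (0.13), CRYAB (−0.29) and HSF1 (−0.03).

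With any library left out, 12 to 17 of the heat shock genes rose, the fewest without vehicle replicate 1. DNAJB1 did not pass without CP18 replicate 2 or vehicle replicate 1 or 2 (0.11 to 0.19 over the settings). In the USP18 cells 15 heat shock genes rose and none fell, with a median of 0.28, where 4.32% of all tested genes rose.

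**Figure D1:**
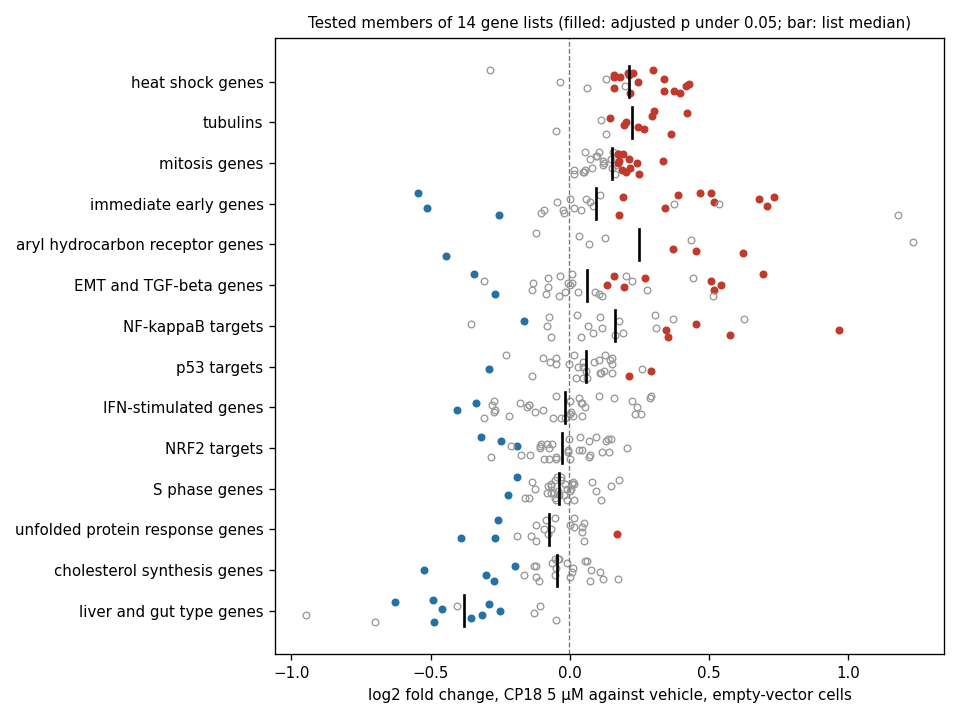
Log2 fold changes of CP18 at 5 µM against vehicle in empty-vector cells for the tested members of 14 gene lists; each point is a gene, filled when its adjusted p is under 0.05, bars are list medians and the dashed line is the median of all tested genes. Heat shock, tubulin and mitosis genes lie mostly above the line, and liver and gut type genes below it.

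Promoter sequence was then looked at for the heat shock genes, after their result was known. The heat shock element was searched as GAA, TTC and GAA set 2 bases apart, on both strands, in the 250 bases before the start of each RefSeq gene of GRCh38.p14. It was found in 155 of 35114 promoters (0.441%) and in 2 of 18 matched heat shock genes. Of the 18, 15 rose, 2 with a match and the others, HSPA1A, HSPA1B and HSP90AA1 among them, without. Only exact matches were counted, so elements that differ by a base or lie further from the start were not looked for. A match describes the sequence only, and binding was not tested. In the sequences that follow, from RefSeq GRCh38.p14, capitals mark the matches, and each is written in the direction of the gene: HSPA8 at chr11:123062137-123062386, minus strand, with matches starting 230 and 55 bases before the start, and CHORDC1 at chr11:90223050-90223299, minus strand, with matches at 60, 55 and 50.
HSPA8: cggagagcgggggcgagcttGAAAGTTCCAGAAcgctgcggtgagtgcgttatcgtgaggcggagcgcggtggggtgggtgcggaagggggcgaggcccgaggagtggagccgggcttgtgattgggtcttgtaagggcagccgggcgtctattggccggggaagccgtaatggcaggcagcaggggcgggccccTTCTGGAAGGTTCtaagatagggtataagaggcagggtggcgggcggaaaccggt
CHORDC1: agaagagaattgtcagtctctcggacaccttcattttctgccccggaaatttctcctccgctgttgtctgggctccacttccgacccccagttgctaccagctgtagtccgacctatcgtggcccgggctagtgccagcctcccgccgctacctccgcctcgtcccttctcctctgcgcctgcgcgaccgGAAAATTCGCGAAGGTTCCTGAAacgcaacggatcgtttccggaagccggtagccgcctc

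Tubulins build the microtubules of the cytoskeleton and the spindle, and their mRNAs are known to respond to the amount of free tubulin. TUBA1A and TUBA1C encode alpha chains, and TUBB4B and TUBB2B encode beta chains. A broad rise was seen over this family. Of 12 tested tubulins, 9 rose and none fell, with a median of 0.22. DESeq2 had 10 rises, and no tubulin fell at an unadjusted p under 0.05 in edgeR.

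TUBA1A (ENSG00000167552.14, chr12:49184686-49189080, minus strand) had 88.3, 89.7 and 96.7 CPM in the vehicle libraries, and 120, 120 and 114 CPM after CP18, with no overlap. TUBA1A rose by a log2 of 0.36 (SE 0.0439, edgeR quasi-likelihood, Benjamini-Hochberg adjusted p = 7.2e-05, 3 of 3 libraries higher). TUBB4B rose by 0.29, from 425, 410 and 449 CPM to 510, 551 and 512 CPM. TUBA4A rose by 0.30, TUBA1C by 0.24 and TUBB2B by 0.42, while TUBB had 0.11 and did not pass. Alpha tubulin genes share much of their sequence, so the split between them is uncertain. The tubulin count depended on the libraries: 4 rose without vehicle replicate 2 and 5 without vehicle replicate 1. In the USP18 cells 10 tubulins rose, with a median of 0.21, where 4.32% of all tested genes rose.

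Mitosis genes encode the kinases, kinesins and kinetochore proteins that act as cells divide. Their mRNAs peak in G2 and M phase, so their level in bulk RNA follows the share of cells in those phases as well as expression per cell. Of 31 tested mitosis genes, 12 rose and none fell, with a median of 0.15, and all 31 had a log2 fold change above 0. DESeq2 had 13 rises and no falls, and none fell at an unadjusted p under 0.05 in edgeR.

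HMMR (ENSG00000072571.20, chr5:163460203-163491941, plus strand) measured 98.0, 98.2 and 98.2 CPM in the vehicle libraries and 121, 139 and 110 CPM in the CP18 libraries, with no overlap. HMMR rose by a log2 of 0.33 (SE 0.0617, edgeR quasi-likelihood, Benjamini-Hochberg adjusted p = 0.0026, 3 of 3 libraries higher). CENPE rose by 0.25, CENPF by 0.21, and CCNB1 and KIF20A by 0.19 each. The mitosis count was 3 without vehicle replicate 2, 4 without vehicle replicate 1 and 18 without CP18 replicate 3.

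Genes of DNA replication were also tested. Of 35 S phase genes, none rose and 2 fell, MCM2 by −0.22 and POLE by −0.19, with a median of −0.04, where 4.30% of all tested genes fell. The S phase falls numbered 1 without vehicle replicate 1 or CP18 replicate 2, none without vehicle replicate 2, 4 without CP18 replicate 1 and 5 without CP18 replicate 3. At an unadjusted p under 0.05 in edgeR, 3 S phase genes were higher and 6 lower. DESeq2 had 0 and 5. In the USP18 cells, where 4.32% of all tested genes rose, 13 S phase genes rose and none fell, with a median of 0.13. The difference between the cell types passed for 2 of the 35. Of 25 homologous recombination and checkpoint genes, 0 passed by edgeR and 0 by DESeq2, with 4 lower at an unadjusted p under 0.05 and a median of −0.04. In G1, 2 of 10 cyclins and inhibitors fell, CCND3 by −0.28 and CDKN1B by −0.25, with a list median of −0.03, and 1 fell without vehicle replicate 2. CDKN1A had 0.11 and did not pass. Among 20 histone genes tied to replication, 1 fell, with a median of −0.13, where 4.30% of all tested genes fell. No histone gene fell without vehicle replicate 2 or CP18 replicate 2, and 2 fell without vehicle replicate 3 or CP18 replicate 1.

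Immediate early genes encode transcription factors and matricellular proteins that are switched on within minutes by serum, stress or stretch. CCN2 and CCN1 are secreted matrix-associated proteins, and JUN, FOSB, FOSL1 and ATF3 are members of the AP-1 family and its relatives. At 48 h with CP18 this list moved in both directions. Of 28 tested immediate early genes, 10 rose and 3 fell, with a median of 0.10.

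CCN2 (ENSG00000118523.6, chr6:131948176-131951372, minus strand) stood at 50.2, 51.6 and 55.5 CPM in vehicle and 73.4, 75.8 and 75.9 CPM in CP18 libraries. All CP18 values were higher than all vehicle values. CCN2 rose by a log2 of 0.52 (SE 0.0489, edgeR quasi-likelihood, Benjamini-Hochberg adjusted p = 9.2e-06, 3 of 3 libraries higher). CCN1 rose by 0.51, from 67.3, 73.6 and 77.5 CPM to 99.3, 109 and 102 CPM.

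Some genes of the AP-1 family rose as well, while FOSL2 fell and FOS did not pass. JUN (ENSG00000177606.6, chr1:58776845-58784048, minus strand) had 63.5, 63.3 and 66.3 CPM in the vehicle libraries, and 83.5, 93.0 and 90.1 CPM after CP18, without overlap. The log2 fold change of JUN was 0.47 (SE 0.0559, edgeR quasi-likelihood, Benjamini-Hochberg adjusted p = 7.2e-05, 3 of 3 libraries higher). FOSB (ENSG00000125740.14, chr19:45467995-45475179, plus strand) rose by 0.73, from 15.6, 19.3 and 16.0 CPM to 26.5, 27.7 and 29.9 CPM. ATF3 (ENSG00000162772.17, chr1:212565334-212620777, plus strand) rose by 0.68, from 6.49, 7.07 and 8.93 CPM to 11.9, 11.8 and 12.4 CPM. FOSL1 rose by 0.71 and IER3 by 0.34. EGR1 (ENSG00000120738.8, chr5:138465479-138469303, plus strand), a zinc finger factor, rose by 0.39, from 229, 247 and 228 CPM to 288, 314 and 318 CPM.

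Other immediate early genes fell or did not pass. NR4A2 fell with a log2 fold change of −0.51, from 11.9, 12.3 and 12.9 CPM to 8.47, 8.18 and 9.21 CPM, and NR4A3 (−0.55) and FOSL2 (−0.25) also fell. FOS had −0.02 and NR4A1 0.00, with means of 167 and 164 CPM for FOS. The number of rises lay between 9 and 12 with any library left out. Of 15 MAPK feedback genes, 2 rose and 1 fell, with a median of 0.01: EPHA2 rose by 0.20 and ETV1 fell by −0.43. Without vehicle replicate 2, 1 of them rose and none fell, none fell without vehicle replicate 3, and 3 fell without CP18 replicate 3.

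The promoters of these genes were searched for the CArG box in the same way, after the list result was known. It was found in 407 of 35114 promoters (1.16%) and in 2 of 22 matched immediate early genes. Of the 22, 6 rose, 1 with a match and the others without. Only exact matches in the 250 bases were counted, so other forms or more distant elements were not looked for. The EGR1 sequence from RefSeq GRCh38.p14, chr5:138465229-138465478, plus strand, has matches starting 105 and 83 bases before the start, in capitals.
EGR1: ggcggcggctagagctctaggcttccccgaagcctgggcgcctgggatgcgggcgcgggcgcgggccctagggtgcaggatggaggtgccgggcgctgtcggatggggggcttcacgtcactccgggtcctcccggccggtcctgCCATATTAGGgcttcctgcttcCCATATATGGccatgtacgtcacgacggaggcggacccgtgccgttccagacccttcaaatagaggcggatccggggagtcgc

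Liver and gut type genes are expressed in part of lung adenocarcinomas. CPS1 encodes the first enzyme of the urea cycle, HNF4A is a transcription factor of liver and gut, and FGA, FGB and FGG encode the chains of fibrinogen. Every tested member had a lower value with CP18. Of 14 tested members, none rose and 8 fell, with a median of −0.38, and 0 of the 14 had a log2 fold change above 0. DESeq2 had 8 falls and no rises, and 10 members were lower and none higher at an unadjusted p under 0.05 in edgeR.

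CPS1 (ENSG00000021826.15, chr2:210477682-210679107, plus strand) measured 929, 946 and 871 CPM in the vehicle libraries and 661, 626 and 665 CPM in the CP18 libraries. Every CP18 library was lower than every vehicle library. CPS1 fell with a log2 fold change of −0.49 (SE 0.0463, edgeR quasi-likelihood, Benjamini-Hochberg adjusted p = 9.2e-06, 3 of 3 libraries lower). HNF4A (ENSG00000101076.16, chr20:44355699-44432845, plus strand) stood at 117, 133 and 113 CPM in vehicle and 85.3, 84.1 and 88.2 CPM in CP18 libraries, with no overlap. HNF4A fell by −0.49 (SE 0.0548, edgeR quasi-likelihood, Benjamini-Hochberg adjusted p = 4.0e-05, 3 of 3 libraries lower).

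The 3 fibrinogen genes fell. FGG fell by −0.63, from 138, 151 and 128 CPM to 74.8, 91.5 and 101 CPM. FGA fell by −0.46 and FGB by −0.35, and FGB did not pass without vehicle replicate 2 (−0.27). FOXA1 (−0.25) and APOH (−0.31) fell too, while TF had −0.95 and did not pass. FOXA1 did not pass in 4 of 14 settings, among them without vehicle replicate 2 or 3 (−0.29 to −0.20 over the settings). Without vehicle replicate 2 the number of falls in this list was 4. In the USP18 cells 5 of the list fell, with a median of −0.31, where 6.40% of all tested genes fell.

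Some of the smallest p values belonged to falls of genes outside the lists. INSL4 (ENSG00000120211.4, chr9:5231419-5235304, plus strand) encodes an insulin-like peptide of the placenta. It had 86.6, 96.0 and 79.1 CPM in the vehicle libraries, and 47.1, 45.1 and 55.1 CPM after CP18, with no overlap, and fell by −0.82 (SE 0.0745, edgeR quasi-likelihood, Benjamini-Hochberg adjusted p = 9.2e-06, 3 of 3 libraries lower). ERBB3 (ENSG00000065361.15, chr12:56076799-56103505, plus strand), a receptor of the EGFR family, fell by −0.67, from 70.9, 74.9 and 65.6 CPM to 43.8, 43.0 and 45.5 CPM. SMOC1 fell by −0.66, TM4SF20 by −0.69, GPR37 by −0.91 and SLC23A2 by −0.54. The noncoding H19 fell by −0.57 and NOTCH3 by −0.61.

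BMP6 (ENSG00000153162.9, chr6:7726099-7881728, plus strand), a secreted ligand of the BMP family, fell past both thresholds. It measured 15.9, 19.5 and 16.1 CPM in the vehicle libraries and 7.69, 9.25 and 8.05 CPM in the CP18 libraries, with no overlap. BMP6 fell by −1.03 (SE 0.103, edgeR quasi-likelihood, Benjamini-Hochberg adjusted p = 1.8e-05, 3 of 3 libraries lower). BMP6 passed at an adjusted p under 0.05 in all 14 settings tried, but its log2 fold change was −0.98 without CP18 replicate 1 and −0.94 without vehicle replicate 2, short of a halving. SMAD9, which acts downstream of BMP receptors, was sparse and fell by −1.30. SMAD9 did not pass without vehicle replicate 1 (−1.41) or 2 (−1.10), or without CP18 replicate 1 (−1.29) or 2 (−1.30). The BMP antagonist NOG rose by 1.11, from a mean of 0.503 CPM to 1.10 CPM. NOG did not pass without vehicle replicate 1 (0.87) or 2 (1.10), or without CP18 replicate 1 (0.99) or 2 (1.09).

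Few protein-coding genes doubled. LY6K (ENSG00000160886.13, chr8:142700111-142705127, plus strand), which encodes a GPI-anchored testis protein, stood at 0.329, 0.393 and 0.357 CPM in vehicle and 2.90, 2.58 and 1.21 CPM in CP18 libraries, without overlap. LY6K rose by a log2 of 2.61 (SE 0.374, edgeR quasi-likelihood, Benjamini-Hochberg adjusted p = 0.00034, 3 of 3 libraries higher) and passed both thresholds in each of the 12 settings that gave it an adjusted p. DESeq2 gave it none. BCL2A1, an apoptosis regulator, rose by 1.10, from 1.55 to 3.34 CPM, and did not pass without CP18 replicate 2 (1.13) or without vehicle replicate 1 (0.80) or 2 (1.10). SLC2A4, the insulin-responsive glucose transporter, fell by −1.70, from a mean of 1.02 CPM to 0.304 CPM. It did not pass without CP18 replicate 2 (−1.64) or without vehicle replicate 1 (−1.57) or 2 (−1.62).

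Several other rises rest on sparse or uncertain reads. FP565260.2 had no counts with vehicle and 24, 38 and 17 counts with CP18, at least 10.1-fold higher with a floor of 3 counts per library. AL121758.1 was at least 4.76-fold higher, with 1 CP18 library at 0 counts. AL671762.1, which overlaps the HSPA1B region, had a log2 fold change of 2.66 that rests on CP18 replicate 2 (17.8 CPM; 2.17 and 2.48 CPM in the others), and it did not pass without that library (0.99) or without vehicle replicate 1 (3.17), 2 (2.55) or 3 (2.36). AL390195.1 (1.85) did not pass without vehicle replicate 1 (1.78) or 2 (1.90), and SMIM11A (1.68) without CP18 replicate 1 (1.26) or vehicle replicate 1 (1.26) or 3 (1.74). LCN12 (1.04) did not pass without any 1 of the 6 libraries (0.91 to 1.13). FAM95B1 (1.06) did not pass without CP18 replicate 3 (0.87) or vehicle replicate 1 (0.99) or 3 (0.87), and AC145207.5 (1.36) was under a doubling without CP18 replicate 3 (0.90). RAC1P2 (1.13; 0.97 without vehicle replicate 1) and AC116533.1 (1.12; 0.68 without CP18 replicate 2) are pseudogenes, and their reads cannot be told apart with certainty from those of their parent genes. KIAA0408 (1.82) and CLEC2D (1.02) also rose.

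Further falls past both thresholds were ADGRD1, close to a halving, CALCRL (−1.29), AC073508.2 (−3.13) and HIST1H1E (−2.20). AC073508.2 did not pass without any 1 of the 6 libraries (−4.08 to −2.60), and HIST1H1E did not without vehicle replicate 2 (−1.25) or CP18 replicate 2 (−2.09). CACNB2 was at least 2.22-fold lower and AC007952.1 at least 4.22-fold lower. The readthrough genes CRYZL2P-SEC16B (−1.32) and CHURC1-FNTB (−2.51) share exons with neighbours, so their values are uncertain. CHURC1-FNTB did not pass without CP18 replicate 2 (−1.95) or vehicle replicate 1 (−2.58) or 2 (−2.34).

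**Figure D2:**
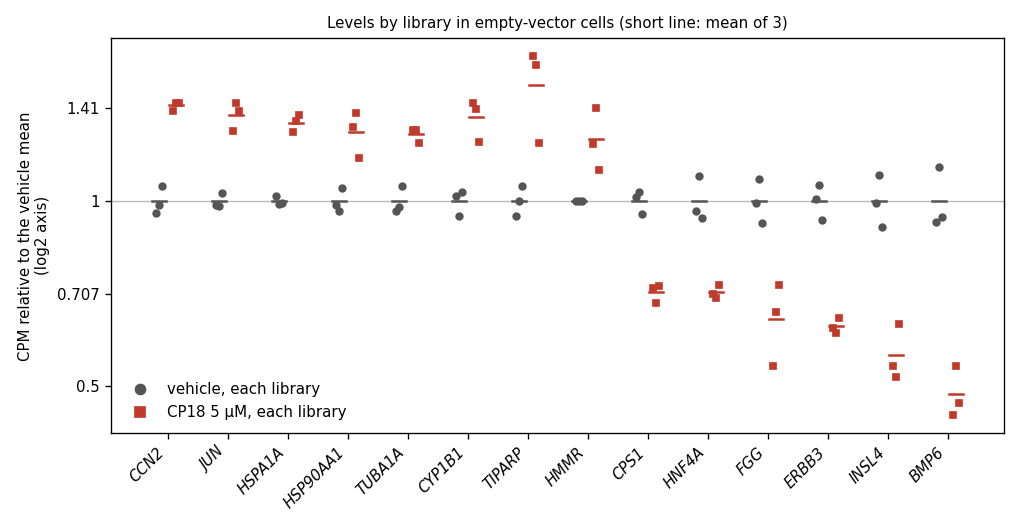
CPM of 14 genes in each vehicle library (circles) and each CP18 library (squares), divided by the vehicle mean, on a log2 axis. In each gene shown the groups do not overlap.

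Small RNAs without a poly(A) tail made up much of the large falls. RN7SL1, RN7SL2 and RN7SL3 are forms of the signal recognition particle RNA, RMRP and RPPH1 are the RNA parts of RNase MRP and RNase P, and SNORD3A is the U3 small nucleolar RNA. Their capture depends on how a library is made. Of 9 tested members, none rose and 8 fell, with a median of −2.40. DESeq2 had 5 falls and no rises, and none were higher at an unadjusted p under 0.05 in edgeR.

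RN7SL1 had 84.0, 186 and 27.6 CPM in the vehicle libraries, and 30.1, 17.8 and 23.1 CPM after CP18. These groups overlapped, because vehicle replicate 3 lay within the CP18 values, and the log2 fold change was −2.04. RMRP measured 15.2, 33.3 and 3.25 CPM in the vehicle libraries and 2.67, 1.68 and 0.455 CPM in the CP18 libraries, and fell by −3.41. SNORD3A stood at 7.11, 17.6 and 1.75 CPM in vehicle and 0.947, 0.336 and 1.32 CPM in CP18 libraries, and fell by −3.28. RPPH1 fell by −3.12, RN7SL2 by −2.06, RN7SL3 by −2.40 and RN7SK by −2.24. The 5.8S ribosomal RNA copies have identical values, and RNA5-8SN1 fell by −3.29, from 46.3, 109 and 10.0 CPM to 8.08, 1.40 and 6.93 CPM. SNORA73A was at least 12.6-fold lower, and did not pass without vehicle replicate 2 or CP18 replicate 2, and RF00003 at least 6.11-fold lower.

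Vehicle replicates 1 and 2 are high in these RNAs, and many of the falls depend on replicate 2. Without vehicle replicate 2, 1 member of the list fell, and 5 fell without CP18 replicate 2. Without vehicle replicate 2, RN7SL1 (−1.22), RN7SL2 (−1.25), RN7SL3 (−1.62), RPPH1 (−1.98) and RMRP (−2.51) did not pass. SNORD3A (−2.30) and RNA5-8SN1 (−2.33) passed without it, and also without vehicle replicate 1. RN7SL3 also did not pass without vehicle replicate 1 (−2.46), CP18 replicate 1 (−2.33) or CP18 replicate 2 (−2.21). RN7SL1 was at a mean of 19.1 CPM at 1 µM and 30.2 CPM at 2.5 µM, and in the CP2 libraries at 20.6, 35.4 and 168 CPM, so single libraries of another treatment are as high. In the USP18 cells none of the list passed in either direction, and the median was −0.44. A change in these RNAs and a difference between libraries cannot be told apart here.

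**Figure D3:**
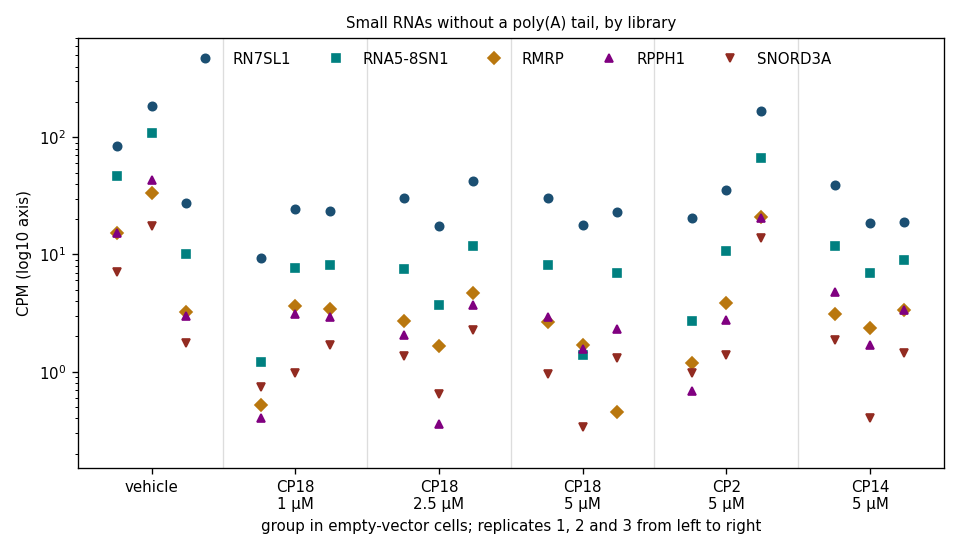
CPM of 5 small RNAs in each empty-vector library on a log10 axis, for vehicle, CP18 at 1, 2.5 and 5 µM, CP2 at 5 µM and CP14 at 5 µM; each point is a library. Vehicle replicates 1 and 2 and CP2 replicate 3 are the high ones.

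The aryl hydrocarbon receptor binds planar compounds and drives CYP1 enzymes and its own repressors. CYP1B1 and ALDH3A1 metabolise xenobiotics and aldehydes, and TIPARP is a feedback repressor of the receptor. Some of these genes rose, and the receptor gene fell. Of 10 tested members, 3 rose and 1 fell, with a median of 0.25, and the same counts were found without each library in turn.

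CYP1B1 (ENSG00000138061.12, chr2:38066973-38109902, minus strand) had 158, 147 and 160 CPM in the vehicle libraries, and 224, 219 and 193 CPM after CP18, with no overlap. CYP1B1 rose by a log2 of 0.45 (SE 0.0558, edgeR quasi-likelihood, Benjamini-Hochberg adjusted p = 9.1e-05, 3 of 3 libraries higher). TIPARP rose by 0.62, from 24.9, 26.4 and 27.9 CPM to 45.4, 43.8 and 32.8 CPM. ALDH3A1 rose by 0.37, from 1025, 977 and 990 CPM to 1250, 1205 and 1410 CPM. AHR itself fell by −0.44, from 96.0, 97.5 and 89.2 CPM to 75.3, 71.5 and 60.7 CPM. CYP1A1 was sparse, at means of 0.296 and 0.703 CPM, and did not pass.

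Genes of redox metabolism moved little. NRF2 drives NQO1 and the aldo-keto reductases, and NQO1 reduces quinones such as β-lapachone. Of 34 NRF2 targets tested, none rose and 3 fell, with a median of −0.03, where 4.09% of all tested genes rose and 4.30% fell. Of these targets 5 were higher and 9 lower at an unadjusted p under 0.05 in edgeR, and DESeq2 had 1 rise and 7 falls. AKR1C1 fell by −0.32, from 530, 528 and 486 CPM to 385, 380 and 471 CPM, and EPHX1 by −0.25. NQO1 had 0.07 and did not pass. Without CP18 replicate 3 there were 4 NRF2 rises and 9 falls, without CP18 replicate 1 there were 2 and 5, and without vehicle replicate 1 or 2 there was 1 fall. No iron and ferroptosis gene passed in edgeR (0 of 15, median −0.04), where 3 were higher and 2 lower at an unadjusted p under 0.05, and DESeq2 had 1 fall. Without CP18 replicate 3, 3 iron genes fell, and 1 fell without CP18 replicate 1 or vehicle replicate 3. Among 14 PARP and NAD genes, CD38 fell by −0.56 and SIRT1 by −0.23, with a median of −0.05. In that list 1 fell without CP18 replicate 1 or vehicle replicate 1, none fell without vehicle replicate 2, and 1 rose without CP18 replicate 3. SLC30A1 fell by −0.22 among 6 metallothionein and zinc genes, whose median was −0.12. It did not pass without any 1 of the vehicle libraries, and 2 genes of that list fell without CP18 replicate 1 or 2.

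Genes tied to ISG15 and interferon were looked at because the series turns on USP18. Interferon-stimulated genes encode antiviral proteins, and the conjugation machinery attaches ISG15 to proteins. Of 35 interferon-stimulated genes, none rose and 2 fell, with a median of −0.02, where 4.30% of all tested genes fell. Of these 1 was higher and 3 lower at an unadjusted p under 0.05 in edgeR, and DESeq2 had 0 rises and 2 falls. OAS1 fell by −0.41, from 53.5, 55.2 and 46.9 CPM to 35.9, 40.7 and 40.1 CPM. IFITM2 fell by −0.34, and lost its adjusted p in 7 of 14 settings. Falls in this list numbered 1 without CP18 replicate 2 or vehicle replicate 1 or 2, and 1 gene rose without CP18 replicate 1 or 3. Of 11 conjugation genes, 0 passed by edgeR and 0 by DESeq2, with 1 higher and 2 lower at an unadjusted p under 0.05 and a median of −0.06. Without CP18 replicate 1, 1 conjugation gene rose and 2 fell, and 1 fell without CP18 replicate 3 or vehicle replicate 3. PSMB9 rose by 0.43 among 17 MHC class I genes, which had a median of 0.03, and none rose without CP18 replicate 2 or any 1 vehicle library.

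NF-κB drives chemokines, and TGF-β signalling drives genes of the matrix and cytoskeleton. Of 23 NF-κB targets, 5 rose and 1 fell, with a median of 0.16, and 2 rose without CP18 replicate 2 or vehicle replicate 1 and 3 without CP18 replicate 1 or vehicle replicate 2. None fell without CP18 replicate 2 or any 1 vehicle library. CXCL8 rose by 0.58, from 8.00, 7.74 and 8.81 CPM to 12.0, 12.8 and 11.8 CPM, CXCL1 by 0.45, CCL2 by 0.97, NFKB2 by 0.34 and BIRC3 by 0.35. BIRC3 did not pass without CP18 replicate 1 or 2 or vehicle replicate 1 or 2 (0.22 to 0.49 over the settings), and CXCL1 did not without CP18 replicate 2 or vehicle replicate 1 (0.41 to 0.54).

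Genes of EMT and TGF-β gave 8 rises and 2 falls of 32 tested, with a median of 0.06, 4 rises without vehicle replicate 1 or 2, and 5 without CP18 replicate 1. TPM1 rose by 0.49. COL7A1 and HAS3, which encode a collagen chain and a hyaluronan synthase, rose by 0.34 and 0.57.

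Stress responses of the endoplasmic reticulum and of amino acid supply were small. Of 20 genes of the unfolded protein response, 1 rose and 3 fell, with a median of −0.07. Over all tested genes 4.09% rose and 4.30% fell. XBP1 fell by −0.39, from 163, 175 and 155 CPM to 119, 125 and 131 CPM, SEL1L by −0.26 and ERN1 by −0.27, while MANF rose by 0.17. MANF did not pass without any 1 of the libraries other than CP18 replicate 1, and 1 gene fell without vehicle replicate 2. In the USP18 cells 16 of these 20 fell and none rose, with a median of −0.25, where 6.40% of all tested genes fell. The interaction passed for 3 of the 20. Of 35 ATF4 and amino acid genes, 5 rose and 2 fell, with a median of 0.02, where 4.09% of all tested genes rose and 4.30% fell. The rises in this list numbered 1 without vehicle replicate 1 or 2, 2 without CP18 replicate 2 and 3 without CP18 replicate 1. Without CP18 replicate 3, 4 of the list fell. STC2 rose by 0.43 and ASNS by 0.15, and SLC38A2 fell by −0.29 and CEBPB by −0.26.

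Cholesterol and fatty acid synthesis genes include targets of the SREBP factors. Of 26 cholesterol synthesis genes, none rose and 4 fell, with a median of −0.05. Of these 2 were higher and 7 lower at an unadjusted p under 0.05 in edgeR, and DESeq2 had 0 rises and 4 falls. Without CP18 replicate 3, 2 of them rose. Among 8 fatty acid synthesis genes 3 fell, SCD by −0.25, with a median of −0.09, and 1 fell without vehicle replicate 1 or 2. Of 33 hypoxia and glycolysis genes, 5 rose and none fell, with a median of 0.06. ENO2 rose by 0.29 and PFKP by 0.25, and 3 rose without vehicle replicate 2.

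Genes of p53 and cell death were also tested. Of 29 p53 targets, 2 rose and 1 fell, with a median of 0.06, where 4.09% of all tested genes rose and 4.30% fell: TP53I3 rose by 0.29, FAS by 0.21 and SUSD6 fell by −0.29. FAS did not pass in 11 of 14 settings, among them RLE size factors, DESeq2 and leaving out any 1 library other than CP18 replicate 3 (0.18 to 0.23 over the settings). Without CP18 replicate 3 the p53 rises numbered 6, and without any 1 of the vehicle libraries there was 1. The p53 fall did not pass without CP18 replicate 2 or vehicle replicate 2 or 3. Of 22 listed apoptosis regulators, 2 rose, BIRC3 and FAS, which are already counted above, with a median of 0.08. BCL2A1, whose rise is given above, is not in this list. The rises in the list numbered 7 without CP18 replicate 3, 1 without vehicle replicate 3 and none without any other library. Cell loss was not tested, and in bulk RNA fewer cells and less RNA per cell cannot be told apart.

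The counts for ribosomal protein genes depended on which libraries were used. Of 79 ribosomal protein genes, 7 rose and none fell, with a median of 0.02, where 4.09% of all tested genes rose and 4.30% fell. DESeq2 had 12 rises and 2 falls, and 18 were higher and 5 lower at an unadjusted p under 0.05 in edgeR. RPS24 rose by 0.24. The rises numbered 0 without vehicle replicate 1, 2 without CP18 replicate 2 or vehicle replicate 2 or 3, and 19 without CP18 replicate 1, and without CP18 replicate 3 there were 9 rises and 24 falls. MT-ND6 rose by 0.40 among 13 mitochondrially encoded genes, with a median of 0.08.

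Of 19 tested genes named in the study's text, 3 rose and 1 fell, with a median of 0.07, and 2 fell without CP18 replicate 3. DYNLL1 (0.23), TUBA1C (0.24) and TUBA4A (0.30) rose, and NR4A2 fell. The study names the 3 that rose as ISG15-conjugated proteins. It reports DYNLL1 protein going down with β-lapachone dose, while the values here are mRNA. No alveolar type II (2 tested, median −0.18), fibroblast (5 tested, median 0.11) or leukocyte marker (3 tested, median 0.11) passed in edgeR or in DESeq2, and 0 of them had an unadjusted p under 0.05. None of 6 endothelial markers had enough counts to be tested.

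Dose was asked within the empty-vector cells, where CP18 was also given at 1 and 2.5 µM. A steady response would move a gene further at each dose. EGR1, FOSB, ATF3 and CCN2 behaved otherwise, with means lowest at 2.5 µM and highest at 5 µM. FOS and NR4A1 were also lowest at 2.5 µM, and their means were close with vehicle and at 5 µM. These were 167 and 164 CPM for FOS, and 182 and 182 CPM for NR4A1. BMP6, CPS1 and HNF4A had lower means at each higher dose.

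Between 5 and 2.5 µM, 31 of 15509 genes passed at any size (0.200%), 30 of them higher at 5 µM (0.193%). The any-size count was 22 to 156 with each library left out, and the split between directions changed, to 86 higher and 70 lower without CP18 replicate 3 and 31 and 20 without CP18 replicate 1. Past both thresholds were 3 genes, EGR1, FOSB and ATF3, and DESeq2 found the same number. EGR1 had means of 234, 196, 141 and 307 CPM with vehicle and 1, 2.5 and 5 µM. From 2.5 to 5 µM EGR1 rose by a log2 of 1.13 (SE 0.0583, edgeR quasi-likelihood, Benjamini-Hochberg adjusted p = 1.7e-09, 3 of 3 libraries higher). FOSB had 17.0, 14.3, 7.52 and 28.0 CPM and rose by 1.91 over the same step. ATF3 had 7.50, 6.17, 5.25 and 12.1 CPM and rose by 1.20. CCN2 rose by 0.93 and JUN by 0.80 from 2.5 to 5 µM, and FOS by 0.75 and HSPA1A by 0.39. Of the 28 immediate early genes, 18 were higher at 5 than at 2.5 µM and none lower, with a median of 0.37.

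Against vehicle, 2.5 µM gave 40 rises and 109 falls (0.703%). EGR1 fell by −0.73 at this dose, CCN2 by −0.41, and 12 of 28 immediate early genes fell, with a median of −0.32. At 1 µM no gene passed both thresholds in edgeR and 2 rose at any size, with 1013 genes at an unadjusted p under 0.05.

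BMP6 had means of 17.2, 15.7, 10.7 and 8.33 CPM from vehicle to 5 µM. CPS1 had 915, 893, 711 and 650 CPM, HNF4A 121, 114, 98.8 and 85.9 CPM, and HSP90AA1 2472, 2532, 2941 and 3201 CPM. The step from 2.5 to 5 µM did not pass for BMP6 (−0.36, 95% interval −0.60 to −0.13) or CPS1 (−0.12, −0.21 to −0.03). HSPA1A had 291, 288, 299 and 391 CPM, so its rise was seen at 5 µM alone.

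**Figure D4:**
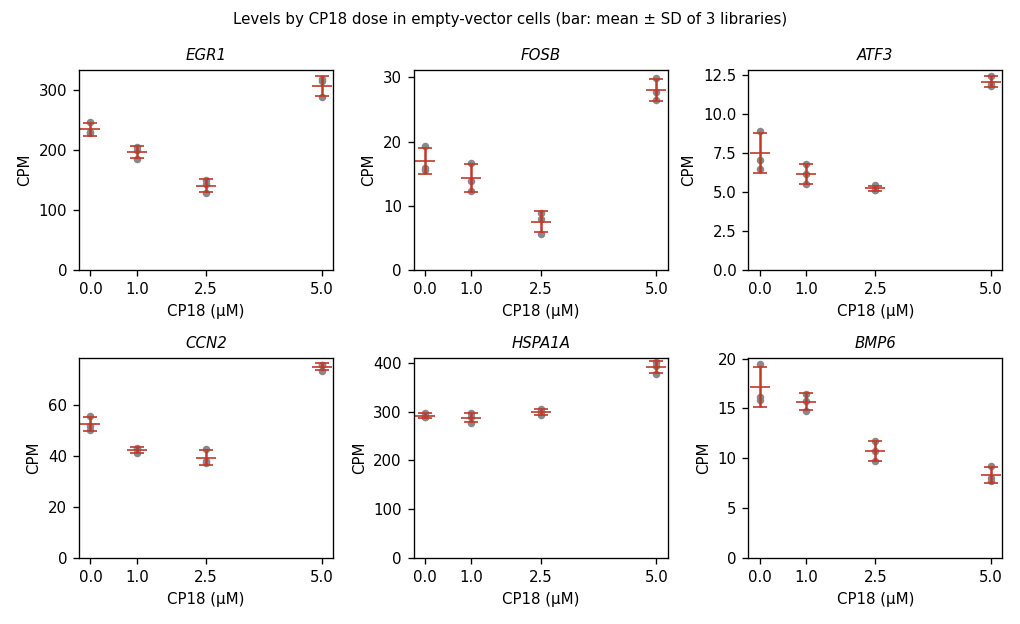
CPM of EGR1, FOSB, ATF3, CCN2, HSPA1A and BMP6 in empty-vector cells against CP18 dose in µM; points are libraries, and markers with bars are the mean and standard deviation of 3. The first 4 genes are lowest at 2.5 µM and highest at 5 µM.

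CP2 and CP14 were given to the same cells at the same dose and time, so the compounds can be set side by side at 5 µM. The vehicle is shared, and each difference between compounds was tested directly. Structures are not part of the sources used. Few genes passed between CP18 and CP2, and many between CP18 and CP14.

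CP18 and CP2 differed at any size for 4 of 15648 genes (0.0256%), where 12 differed with DESeq2. EGR1 was higher with CP18 by a log2 of 0.41 (95% interval 0.30 to 0.52, edgeR quasi-likelihood, Benjamini-Hochberg adjusted p = 0.0085, 3 of 3 libraries higher). PPP1R15A was higher by 0.38 (interval 0.26 to 0.50). EGR1 did not pass without CP18 replicate 2, and PPP1R15A did not without that library or without CP2 replicate 1 or 2 (0.32 to 0.41 over the settings). AC006064.6 (6.37) had a mean of 17.4 CPM with CP18 and 0.170 CPM with CP2, and AC008012.1 had no counts with CP18. Neither passed without CP18 replicate 2. The interval lay within ±1 for 87.9% of genes and within ±0.5 for 72.6%. For HSPA1A the difference was −0.08 (−0.18 to 0.01), for CPS1 −0.02 (−0.13 to 0.08), and for BMP6 −0.14 (−0.38 to 0.11). CCN2 (0.34, 0.21 to 0.46), CCN1 (0.21, 0.10 to 0.33) and CYP1B1 (−0.26, −0.40 to −0.12) had intervals that leave out 0 and did not pass after adjustment. An unadjusted p under 0.05 was found for 812 of the 15648 genes, and for 1956 genes without CP18 replicate 3. A share of about 0.05 would pass that threshold if no gene differed.

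CP18 and CP14 differed for 1893 of 15648 genes past both thresholds (12.1%). At any size 4568 genes were higher with CP18 (29.2%) and 4436 lower (28.3%). All 31 mitosis genes were higher with CP18, with a median of 1.87, and all 35 S phase genes, with a median of 1.45. KIF20A was at 97.5 CPM with CP18 and 13.4 CPM with CP14, a log2 difference of 2.86 (95% interval 2.72 to 3.01, edgeR quasi-likelihood, Benjamini-Hochberg adjusted p = 4.9e-15, 3 of 3 libraries higher). FAM129A was at 7.95 CPM with CP18 and 214 CPM with CP14, a difference of −4.76. Of 35 ATF4 and amino acid genes, 33 were lower with CP18, with a median of −1.23. HSPA1A was higher with CP18 by 1.43, at 391 against 145 CPM, and 12 of 14 liver and gut type genes were higher, with a median of 1.36.

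USP18 cells with the same dose of CP18 show whether the response differs between the cell populations. USP18 is high in these cells, with a mean of 1119 CPM with CP18. Their own response held 677 rises (4.32%) and 1003 falls (6.40%) at any size. The difference between the responses was tested for each gene as an interaction.

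The responses differed for 42 of 15662 genes (0.268%), 7 higher and 35 lower in the USP18 cells. DESeq2 found 98. The count was 21 to 138 with each library left out, and without CP18 replicate 3 there were 57 higher and 81 lower. CCN2 rose in the empty-vector cells (0.52) and fell in the USP18 cells (−0.16). The difference was −0.68 (SE 0.0672, edgeR quasi-likelihood, Benjamini-Hochberg adjusted p = 8.0e-05). Against vehicle, CCN2 was higher in 3 of 3 CP18 libraries of the empty-vector cells. Its USP18-cell means were 101 CPM with vehicle and 91.5 CPM with CP18. CXCL8 rose by 0.58 in the empty-vector cells and fell by −0.50 in the USP18 cells. EGR1 rose in both, by 0.39 and by 0.81, from 94.5 to 168 CPM in the USP18 cells. NR4A2 fell in both, by −0.51 and by −1.49. PTGS2 was at 167 and 145 CPM in the empty-vector cells and fell from 952 to 516 CPM in the USP18 cells. LXN was at 10.4 and 9.18 CPM in the empty-vector cells and fell from 74.3 to 32.7 CPM in the USP18 cells.

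For many genes named above a difference between the responses did not pass. HSPA1A had a difference of 0.22 (95% interval 0.09 to 0.35), HSP90AA1 of 0.06 (−0.09 to 0.21), CPS1 of −0.10 (−0.24 to 0.04) and BMP6 of −0.47 (−0.78 to −0.17), and none passed. Some lists had other counts in the USP18 cells: 6 immediate early genes rose and 8 fell, 8 NRF2 targets rose and 2 fell, 2 hypoxia and glycolysis genes rose and 6 fell, and 11 ATF4 and amino acid genes rose and 3 fell. The interaction passed for 3 of the immediate early genes, 1 of the hypoxia and glycolysis genes and 1 of the ATF4 genes, and for no NRF2 target in edgeR. INSL4 differed by −0.54 and fell further in the USP18 cells, a difference that did not pass in 7 of 19 settings.

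**Figure D5:**
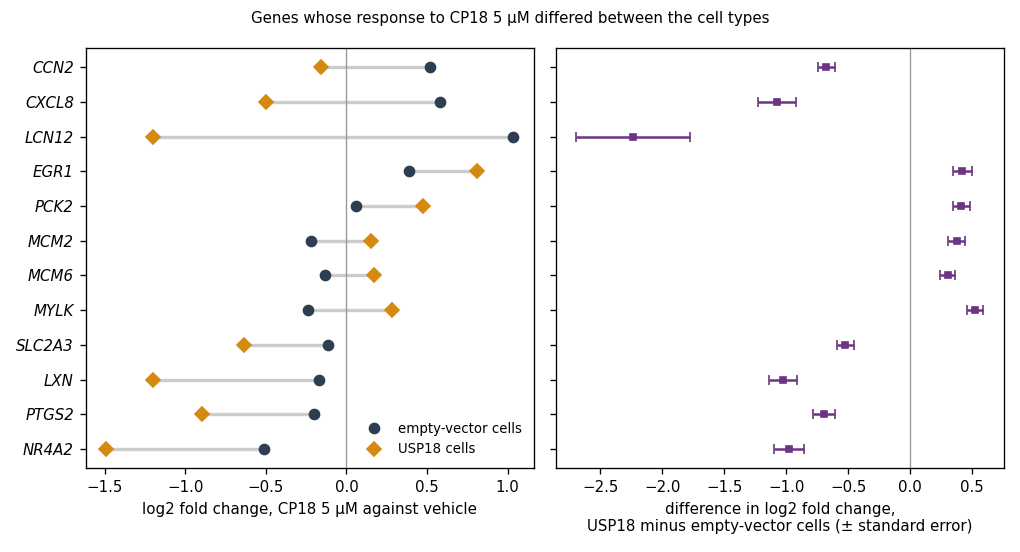
Left, log2 fold change of CP18 at 5 µM against vehicle for 12 genes in empty-vector cells (circles) and USP18 cells (diamonds); right, the difference between the cell types with its standard error. CCN2, CXCL8 and LCN12 rose in the empty-vector cells and fell in the USP18 cells.

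CP18 at 5 µM for 48 h gave rises of 16 of 21 heat shock genes and 9 of 12 tubulins and falls of 8 of 14 liver and gut type genes in empty-vector A549 cells, by less than a doubling or halving. With each library left out these counts were 12 to 17, 4 to 10 and 4 to 8. Over all tested genes 4.09% rose and 4.30% fell. HSPA1A, CCN2, CPS1 and HNF4A passed at an adjusted p under 0.05 with every library left out in turn. CP2 at the same dose gave levels that differed at 4 genes (0 to 7 with each library left out, the fewest without CP18 replicate 2), and the response in USP18 cells differed at 42 (21 to 138). The counts come from 1 cell line, 3 libraries per group and 1 time. The study speaks of independent biological replicates in general, and no source says for these libraries whether they are separate cultures. The p-values measure the spread between these libraries, which may be technical, and intervals and floors cover counting error and that spread only. Leaving out vehicle replicate 1, vehicle replicate 2 or CP18 replicate 3 moves several counts. Protein, cell number and drug uptake were not measured here, and which compound CP18 is was not given.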

How the data were processed

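The data are expected counts per gene, deposited by the authors; 94% of the values are whole, and all were rounded. The submitters' notes name bcl2fastq, cutadapt 1.18, STAR 2.7.0f and RSEM 1.3.1 with hg38. The study's methods name hg38 with a human annotation for mapping, and another RSEM release with a mouse annotation for quantification. They also name ribosomal RNA removal, where the labels name oligo-dT selection. Fits used R 4.3.3 and edgeR 4.0.16 with the quasi-likelihood F test and Benjamini-Hochberg adjustment. Genes were kept by filterByExpr (counts of 10, totals of 15), and libraries were scaled by TMM. DESeq2 1.42.0 was the other tool, and figures used Python 3.11.15 with matplotlib 3.10.9. Each comparison was fitted with the 4 groups it needs (12 libraries). The thresholds were an adjusted p under 0.05 and, where stated, an absolute log2 fold change above 1. Standard errors come from the quasi-likelihood F statistic, and intervals are 95%. CPM values use 1 TMM scaling over all 54 libraries, while fold changes come from the fits of 12. Bounds use a floor of 3 counts per library.

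The named genes were taken from the following, and not every such gene is printed. A pool held genes past both thresholds with no overlap and at least 1 CPM in the higher group. From it came the 12 rises and 12 falls of greatest size and the 5 smallest p values each way. Of each list, up to 4 members past both thresholds were taken, by smallest p. Where no more than 1 was past both, members of smallest p were taken up to 3, passed or not. USP18, ISG15 and genes named in the study were taken as well. For the other comparisons the 5 smallest p values each way were taken among genes past their thresholds. INSL4, SMOC1, ERBB3, TM4SF20, GPR37, SLC23A2, H19, NOTCH3, COL7A1, HAS3, SMAD9, SLC2A4, TPM1, FGA, FGB, FOXA1, FOSL1, HSPA8, DNAJB1, FOS, NR4A1 and further list members were chosen after their values were seen. The libraries and gene lists were chosen with earlier results of these data known; the promoter motifs were chosen after the list results. The lists cover interferon-stimulated genes, ISG15 conjugation, MHC class I, NRF2, the aryl hydrocarbon receptor, p53, apoptosis, mitosis, S phase, homologous recombination, G1, immediate early and MAPK feedback genes, ATF4, the unfolded protein response, heat shock, NF-κB, cholesterol and fatty acid synthesis, hypoxia, iron, PARP and NAD, tubulins, metallothioneins, EMT, liver and gut type genes, mitochondrially encoded, ribosomal protein and histone genes, small RNAs, genes named in the study, and markers of cell types. Lists share members (CCN1, CCN2, IER3, NR4A2, CDH1, TUBA1C, TUBA4A, FAS and BIRC3 among those that passed), so their counts are not separate.

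Alternatives were RLE size factors, no filter, a filter of 10 counts in each library, DESeq2, a block for the replicate number, all 54 libraries in 1 fit, only the 6 libraries of a pair of groups, and each library left out in turn; leaving out vehicle replicate 2 and CP18 replicate 3 together was added after seeing the data. The study's statistics text speaks of independent biological replicates for experiments in general, and the labels of these libraries name no separate cultures. If they are not separate, p values measure only the spread between these samples, which may be technical.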

Additional observations from a re-analysis of the deposited data

Results flagged for a closer look

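For 15 of the named genes, the response to CP18 at 5 µM differed between the USP18 cells and the empty-vector cells by the interaction test (edgeR quasi-likelihood, Benjamini-Hochberg adjusted p under 0.05). The sources describe no more than 1 cell population for each vector, so USP18 level and other differences between the populations cannot be told apart.

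CCN2, CXCL8, LCN12, MANF, MCM2, MCM6 and MYLK had log2 fold changes of opposite sign in the cell types; MCM6 did not pass in the empty-vector cells. The USP18-cell response minus the empty-vector response was −0.68 for CCN2 and −1.08 for CXCL8 (log2). For LCN12 it was −2.24; LCN12 is sparse, and its difference did not pass in 13 of 17 alternatives. MCM2 differed by 0.38, MCM6 by 0.30, MYLK by 0.53 and MANF by −0.42. Of 19 alternatives, the difference did not pass in 10 for MCM6, the replicate block among them, in 6 for MCM2 and in 1 for MANF.

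EGR1 rose further in the USP18 cells, by 0.42 (not passed in 5 of 19 alternatives), and PCK2, which passed only in the USP18 cells, by 0.41. NR4A2, INSL4 and SMOC1 fell further in the USP18 cells, by differences of −0.98, −0.54 and −0.46. The difference did not pass in 7 of 19 alternatives for INSL4 and in 9 for SMOC1. LXN, PTGS2 and SLC2A3 fell in the USP18 cells and did not pass in the empty-vector cells, with differences of −1.03 for LXN, −0.70 for PTGS2 and −0.52 for SLC2A3. The empty-vector cells with vehicle had fewer LXN and PTGS2 reads, at 10.4 CPM for LXN and 167 CPM for PTGS2, where the USP18 cells had 74.3 and 952 CPM.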

How the results depend on the processing

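Of 156 named genes tested, 98 passed at an adjusted p under 0.05; 51 of these passed in every alternative that gave them an adjusted p and 47 did not, and 0 passed in the opposite direction. A change of direction was counted only where 1 of the fits passed. The counts past the thresholds moved more than the genes with the smallest p. The median of all genes moved by less than 0.1 under each scaling.

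CP18 against vehicle in empty-vector cells (46 genes past both thresholds) gave 124 with no filter, 19 with at least 10 counts in every library, 11 with DESeq2 (which gave an adjusted p to 11 of the 46), 74 with all 54 libraries and 25 with only the 6 libraries. It gave 45 with RLE size factors. Leaving out each library in turn gave 22 (without vehicle replicate 2) to 71 (without CP18 replicate 3), and 24 without vehicle replicate 1. Vehicle replicate 2 and CP18 replicate 3 both left out, an alternative chosen after seeing the data, gave 50, of which 17 were among the 46.

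The interaction (42 genes) gave 209 with no filter, 98 with DESeq2, 121 with all 54 libraries, 135 with both libraries left out, and 21 to 138 with each library left out, the highest without CP18 replicate 3. CP18 at 5 against 2.5 µM (3 genes) gave 54 with no filter and 3 to 9 with each library left out. CP18 against CP14 (1893 genes) lay between 1282 and 2209 throughout, and between 1860 and 1956 with each library left out. CP18 against CP2 (2 genes) gave 66 with no filter, 4 with DESeq2, 1 with only the 6 libraries, and 0 to 4 with each library left out. It gave 0 with at least 10 counts in every library (704 at an unadjusted p under 0.05 in edgeR; DESeq2 was run with the usual filter) and 0 with all 54 libraries (1568). The filter changes how many sparse genes are tested; for the other changes the cause was not tested.

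A replicate block was tried although the numbering is not known to pair the libraries. Correlations of deviations between vehicle and CP18 libraries of the same number were 0.00435, −0.0870 and −0.0776, and −0.0302 to 0.114 for other pairs. With the block, 38 genes passed for CP18 against vehicle and 30 for the interaction.

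Depth limits the sparse genes: 9 of the 46 were under 1 CPM in both groups, and 6 had a group at the floor of 3 counts per library.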
